A study of Mus musculus with 13 samples.

Results

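Clusters 4 and 2 are groups of adult proprioceptive sensory neurons that the study placed, with cluster 3, among the presumptive group II muscle spindle afferents, and they are compared here with each other. Their members were taken from the annotation that the authors deposited with the counts: 28 neurons in cluster 4 and 15 in cluster 2, together 43 of 208 adult neurons and of 586 neurons of all stages that had passed quality control. All 43 came from adult replicates 1 and 2, each a plate of 96 wells with 1 sorted neuron per well. Cluster 4 contributed 19 neurons on replicate 1 and 9 on replicate 2, whereas cluster 2 contributed 4 and 11, so that the same plates held both clusters in opposite proportions. The remaining adult plates, replicates 3 to 5, held no neuron of either cluster.

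The neurons of both clusters came from dorsal root ganglia of mice of either sex older than postnatal day 56, with the genotype PV:Cre+/-;Rx3:Flp+/-;Ai65+/-. In this intersectional strategy Cre is driven by the parvalbumin gene and Flp by *Runx3*, and the red reporter tdTomato marks any neuron that has ever expressed both, so the label records a history and not the present level of either gene. There was no untreated or control group: the question was how the molecularly defined subtypes of spindle afferents differ. The labels do not tie a plate to an animal, and p-values therefore measure only the spread between plates, which may be technical.

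Muscle spindles are stretch receptors within skeletal muscle, and they are supplied by group Ia and group II afferents. Group Ia fibres form the primary endings and are sensitive to the speed of a stretch, while the thinner group II fibres form the secondary endings and mainly report static muscle length. The genes that mark clusters 4 and 2 have well-known products: *Tac1* encodes the precursor of substance P and neurokinin A, *Cartpt* encodes the cocaine- and amphetamine-regulated transcript peptide, *Cdh13* encodes a cadherin held in the membrane by a lipid anchor, and *Heg1* encodes a transmembrane protein with EGF-like domains. Substance P is best known in sensory ganglia as a transmitter of small pain-sensing neurons.

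A proprioceptor identity was measured in both clusters. All 43 neurons held UMIs (unique molecular identifiers, each counting 1 captured transcript) of *Pvalb*, *Ntrk3*, *Etv1* and the vesicular glutamate transporter *Slc17a7*, 41 held UMIs of *Spp1*, 38 of *Whrn* and 28 of *Runx3*. *Nxph1*, which encodes a neurexin ligand and marks clusters 2 to 4 together, had UMIs in 31 of the 43 neurons. Its level was 45.8 ± 11.4 CPM (UMIs of a gene per 1000000 UMIs of a neuron, averaged over the neurons of a plate; mean ± SD over plates, n = 2) in cluster 2 and 83.8 ± 30.8 CPM (n = 2) in cluster 4, whereas clusters 1 and 5, with 5 plates each, had 6.84 ± 3.59 and 2.43 ± 1.96 CPM. Of 15 markers of nociceptors and thermoreceptors, 9 had no UMI in any of the 43 neurons, among them *Scn10a*, *P2rx3* and *Trpm8*. *Prph*, which large sensory neurons also express, was the only member above 15 CPM on any plate. The list summed to 782 and 685 CPM in cluster 2 (replicates 1 and 2) and to 1014 and 895 CPM in cluster 4. Its 1 tested member was higher in cluster 4 at an unadjusted p under 0.05 in edgeR (log2 difference 0.40) and was not called. *Calca*, the gene of the peptide that most often accompanies substance P in nociceptors, had UMIs in 1 of the 28 cluster 4 neurons and in none of the 15 of cluster 2. The summed level of 16 markers of satellite glia and Schwann cells was 824 and 323 CPM in cluster 2 (replicates 1 and 2) and 267 and 491 CPM in cluster 4, and 5 of the 16 had no UMI.

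The neurons of cluster 4 held fewer UMIs (a lower depth), for a reason that was not tested. Their median was 20511 UMIs on replicate 1 and 19765 on replicate 2, whereas the medians of cluster 2 were 24516.5 and 32321. Summed over neurons, cluster 2 had 114390 and 350869 UMIs and cluster 4 had 432645 and 167439. All wells of an adult plate together held between 2717982 and 4202745 UMIs. The same 96 well barcodes served every plate: the cluster 4 neurons of the plates shared 3 barcodes, those of cluster 2 shared 0, and cluster 2 neurons shared 1 and 2 barcodes with cluster 4 neurons of the other plate. Replicates 1 and 2 also stood apart from replicates 3 to 5 by a list of 128 genes that were higher there within clusters 1 and 5. These took on average 5.84% and 5.54% of the UMIs of a cluster 2 neuron and 4.93% and 6.11% of those of a cluster 4 neuron, and none of the 128 was called between clusters 4 and 2. Of the genes called below, 50 could be tested for that plate difference and 21 of them passed it, against 1405 of all 6985 genes tested for it. Its part in the calls was not tested.

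The upstream sequences of *Cartpt* and *Tac1* are shown because these peptide genes mark cluster 4 and were detected together in single neurons. Each covers 250 bases before to 50 bases after an annotated transcript start, 5′ to 3′ in the direction of the gene, from RefSeq (GRCm38.p6), at chr13:99900634-99900933 (minus strand) for *Cartpt* and chr6:7554811-7555110 (plus strand) for *Tac1*. Capitals mark the cyclic AMP response element TGACGTCA or its 5-letter core, TGACG or CGTCA, which lies within it, searched on both strands.
Cartpt: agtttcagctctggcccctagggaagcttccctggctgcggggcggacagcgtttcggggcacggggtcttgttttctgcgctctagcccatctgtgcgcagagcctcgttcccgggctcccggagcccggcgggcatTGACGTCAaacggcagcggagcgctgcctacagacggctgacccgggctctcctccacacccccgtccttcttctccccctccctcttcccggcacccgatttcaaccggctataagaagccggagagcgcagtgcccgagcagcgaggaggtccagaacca
Tac1: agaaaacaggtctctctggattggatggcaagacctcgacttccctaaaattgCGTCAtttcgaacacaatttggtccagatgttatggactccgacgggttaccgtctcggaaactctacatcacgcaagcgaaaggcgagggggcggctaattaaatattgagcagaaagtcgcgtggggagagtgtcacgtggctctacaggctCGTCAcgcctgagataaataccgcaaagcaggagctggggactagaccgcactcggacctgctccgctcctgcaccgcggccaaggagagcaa
The whole element was found in the *Cartpt* sequence, starting 112 bases before the annotated start. The *Tac1* sequence held the core at 197 and at 43 bases before the start and not the whole element. Of 32851 such sequences in the table, 1.79% held the whole element and 20.8% the core. A promoter was listed for 38 of the 53 genes called between the clusters, in 49 sequences, of which 1 held the whole element and 13 the core (26.5%).

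The 4 marker genes separated the neurons of the clusters to different degrees. *Tac1* (chr6:7555061-7562978) was at 0 and 15.8 CPM in cluster 2 on replicates 1 and 2, and at 167 and 200 CPM in cluster 4. It had UMIs in 13 of 19 and 7 of 9 cluster 4 neurons, against 0 of 4 and 2 of 11 cluster 2 neurons. Both plates of cluster 4 were thus above both plates of cluster 2. The 106 UMIs in cluster 4 against 3 in cluster 2 gave a ratio of 27.4 per total UMI, with an exact 95% counting interval of 9.12 to 135. The fitted log2 difference was 4.90 ± 0.92 (SE; edgeR adjusted p = 0.00522). *Tac1* was no longer called when replicate 1 was left out (adjusted p = 0.13), when replicate 2 was (adjusted p = 0.219) and without the plate as a block (adjusted p = 0.347).

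*Cartpt* (chr13:99898483-99910179) was found in fewer neurons. Cluster 4 had 59.0 and 65.7 CPM on the plates, from 5 of 19 and 4 of 9 neurons, and the highest neuron, at 682 CPM, held 45.2% of the 42 UMIs. Cluster 2 had no UMI in its 15 neurons, which allows up to 20% of neurons with a UMI at this depth and sets no limit on neurons that express the gene. Cluster 4 was at least 10.9-fold higher when cluster 2 was set at 3 UMIs over the group. *Cartpt* was called in the edgeR fit (adjusted p = 0.0102), and no longer when replicate 1 or replicate 2 was left out (adjusted p = 0.172 and 0.337). DESeq2 gave no adjusted p for *Tac1* or *Cartpt*.

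*Cdh13* (chr8:118140017-119324929) was also at 0 UMIs in cluster 2, and stood at 61.1 and 30.4 CPM in cluster 4, with UMIs in 12 of 19 and 4 of 9 neurons. Cluster 4 was at least 7.49-fold higher against 3 UMIs, but *Cdh13* did not pass the adjusted threshold (edgeR adjusted p = 0.0955, unadjusted p = 0.00132). *Heg1* (chr16:33684384-33771576) was the marker of cluster 2. It stood at 210 and 276 CPM in cluster 2, in 14 of 15 neurons, and at 21.7 and 34.5 CPM in cluster 4, in 9 of 28. Both plates of cluster 2 were above both of cluster 4, by a log2 difference of -3.36 ± 0.36 (cluster 4 minus cluster 2; edgeR adjusted p = 1.01e-05). *Heg1* was called under all 13 alternatives.

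Shares of neurons with a UMI depend on depth and on free RNA. After each neuron was thinned to 7000 UMIs, which kept all 43, the shares with a UMI in clusters 2 and 4 were 9.09% and 62.6% for *Tac1*, 0% and 21.6% for *Cartpt*, 0% and 18.7% for *Cdh13*, and 86.4% and 13.7% for *Heg1*. Without thinning they were 9.09% and 73.1%, 0% and 35.4%, 0% and 53.8%, and 95.5% and 38.3%. On the same plates the deeper neurons of cluster 1 (medians of 52008 and 43337 UMIs), taken as a type without these peptides, had UMIs of *Tac1* in 26.7% and of *Cartpt* in 3.33% of neurons, or 7.50% and 0% after thinning. The mean *Tac1* share of cluster 2 after thinning was near that of cluster 1, and that of cluster 4 was above both. On replicate 2 alone, cluster 2 had 18.2% after thinning against 8.33% in cluster 1. The 2 cluster 2 neurons with *Tac1* UMIs, both on replicate 2, stood at 41.4 and 132 CPM. Whether these UMIs came from free RNA was not tested. For *Heg1* the share of cluster 4 after thinning was near the 12.1% of cluster 5. Its levels on replicates 1 and 2 were higher in cluster 4, at 21.7 and 34.5 CPM against 10.8 and 5.45 CPM in cluster 5.

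**Figure D1:**
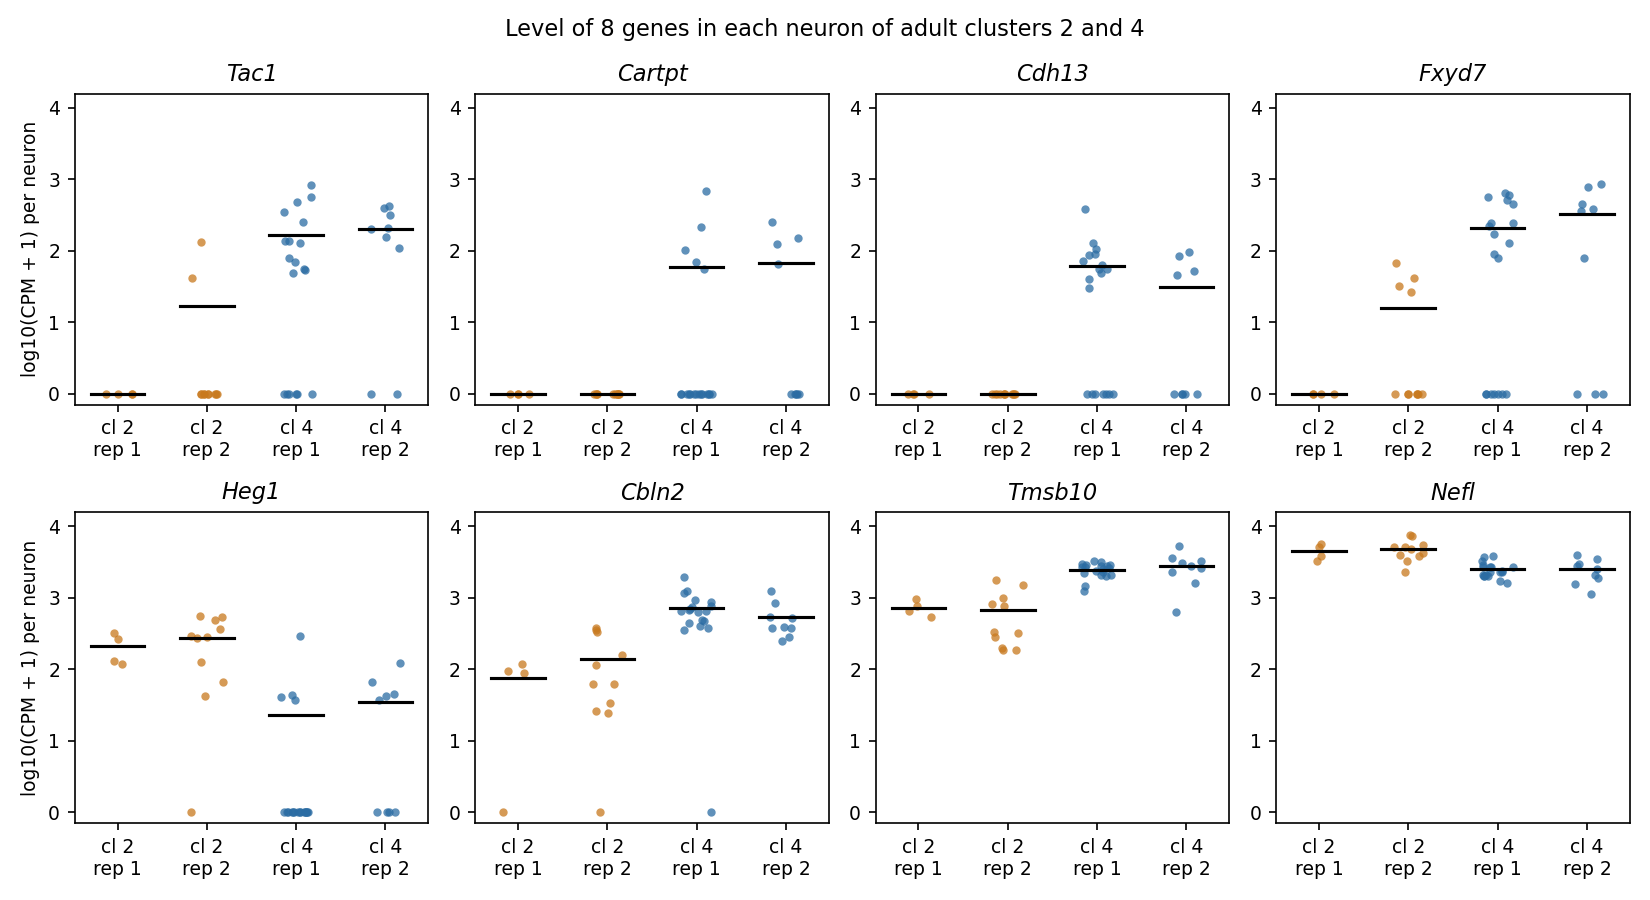
Level of 8 genes in each neuron, as log10(CPM + 1), for cluster 2 (orange) and cluster 4 (blue) on adult replicates 1 and 2; each point is a neuron and the black line is log10 of the mean CPM + 1 of the plate. Points at 0 are neurons without a UMI, such as all 15 cluster 2 neurons for *Cartpt* and *Cdh13*, while *Tmsb10* and *Nefl* were found in all 43.

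UMIs of the cluster 4 markers were detected in different subsets of its neurons, where a neuron without a UMI may still express the gene. *Tac1* was found in 20 of the 28 neurons, *Cdh13* in 16 and *Cartpt* in 9. All 9 neurons with *Cartpt* also had *Tac1*, and the other 11 neurons with *Tac1* had no UMI of *Cartpt*. *Cdh13* accompanied *Tac1* in 11 neurons and was found without it in 5. All 3 genes were found in 5 neurons, and none of them in 3, of which 2 had UMIs of *Heg1*. *Heg1* also occurred in 6 of the neurons with *Tac1*. The 8 neurons without *Tac1* had a median of 21515.5 UMIs and the 20 with it a median of 19438. The 9 neurons with *Cartpt* had a median of 23099 UMIs, above the 17944 of the 11 with *Tac1* alone, and the part of depth and of missed detection in these overlaps was not tested.

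Across all genes, clusters 4 and 2 differed in 53 of 7370 genes tested (0.719%) at an adjusted p under 0.05 in edgeR's quasi-likelihood test. In cluster 4, 26 genes were higher (0.353%) and 27 lower (0.366%). The fit used 18 sums of UMIs per cluster and plate with the plate as a block, so the contrast rests on 2 sums a side while the other clusters inform the spread. At an unadjusted p under 0.05 there were 800 genes (10.9%), with 5.6% of those tested higher and 5.25% lower. The median log2 difference over all genes tested was 0.0079. Of the 53 called genes, 52 differed in the same direction on both plates, against 56.0% of all genes tested; the test rests on these plates and favours genes with one sign, so the count adds no support. The clusters had been defined in these neurons, so a call describes how far the plates repeat a difference and is not independent evidence for the subtypes. Without the block 10 genes were called, all among the 53. Without replicate 1 the count was 26, of which 22 were among the 53, and without replicate 2 it was 19, of which 13 were. The genes called in both of these reduced fits were *Heg1*, *Fxyd7*, *Cbln2*, *Tmsb10*, *Nefl*, *Nefm* and *Malat1*, 7 in all, and every other called gene lost its call in at least 1 of these fits.

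**Figure D2:**
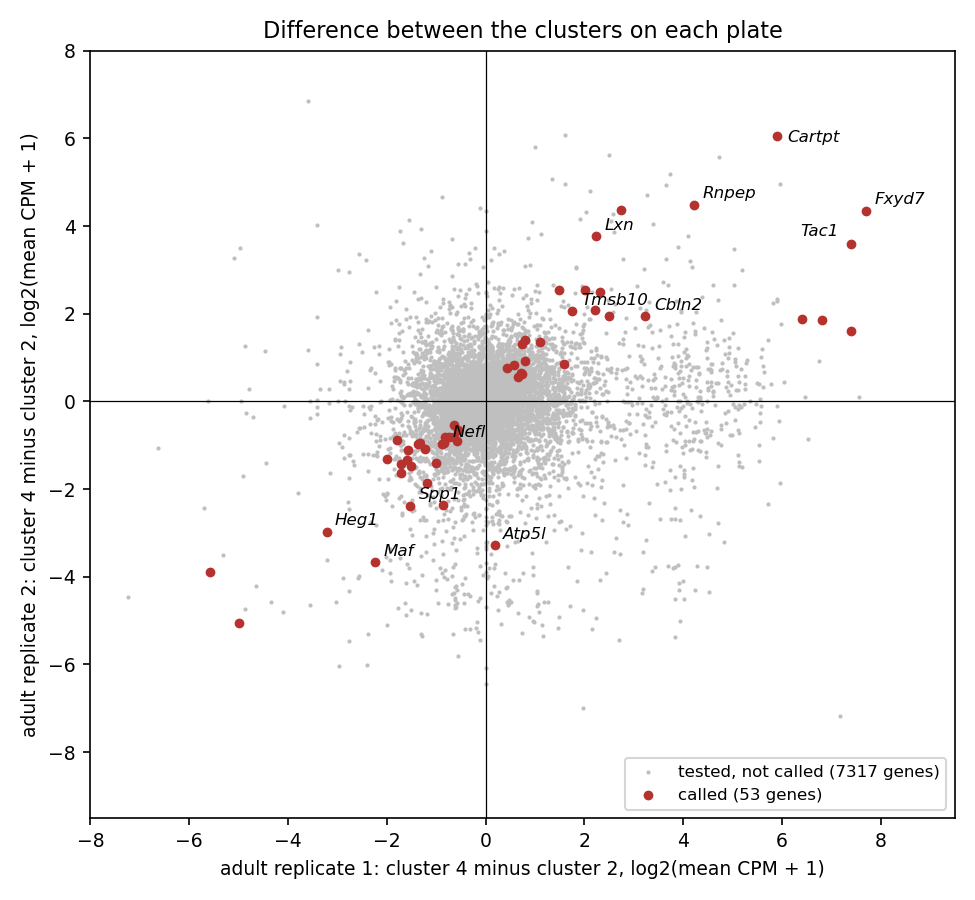
Difference between cluster 4 and cluster 2 on adult replicate 1 (x axis) and on adult replicate 2 (y axis), as log2 of the mean CPM + 1; grey points are the genes tested and not called, red points the 53 called genes. The red points have the same sign on both axes except *Atp5l*, whose difference was near 0 on replicate 1.

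Among called genes, the largest fitted rise after *Cartpt* was that of *Fxyd7*. The gene, which encodes a small regulator of the sodium pump, was at 0 and 14.9 CPM in cluster 2 and at 209 and 323 CPM in cluster 4. Its log2 difference was 5.06 ± 0.58 (edgeR adjusted p = 1.5e-05), and it was called under all 13 alternatives. *Scn7a*, an atypical sodium channel gene, was at 0 and 52.1 CPM in cluster 2 and at 111 and 191 CPM in cluster 4 (2.15 ± 0.49, adjusted p = 0.028). It was the only one of 11 tested members of the sodium and calcium channel list that edgeR called. Of all genes tested, 0.353% were called higher. The median of the list was 0.23 against 0.0079 over all genes. At an unadjusted p under 0.05, 3 members were higher and 3 lower, against 5.6% and 5.25% of all genes tested.

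Other genes among the 12 largest called rises had varied roles. *Cbln2*, the gene of a secreted organizer of synapses that binds neurexins, was at 74.6 and 140 CPM in cluster 2 and at 712 and 540 CPM in cluster 4. Its difference of 2.37 ± 0.30 was called under all 13 alternatives (edgeR adjusted p = 3.26e-05). *Timp2*, an inhibitor of matrix metalloproteinases, was at 66.0 and 44.9 CPM against 268 and 267 CPM. *Lxn*, which encodes a carboxypeptidase inhibitor, was at 98.7 and 39.0 CPM against 468 and 542 CPM, and all 28 cluster 4 neurons had UMIs of it, against 7 of 15 in cluster 2. *Resp18*, an endocrine gene of the secretory pathway, was at 32.7 and 11.1 CPM against 225 and 248 CPM. For these 3 genes the levels of the clusters did not overlap, which adds no support, since the genes were called on the same plates. Their log2 differences were 2.59 ± 0.31, 3.47 ± 0.53 and 3.98 ± 0.59. *Kazald1* was at 32.7 and 26.4 CPM in cluster 2 and at 154 and 115 CPM in cluster 4, and *Caln1*, a calcium-binding protein gene, at 0 and 47.4 against 167 and 146 CPM. *Rnpep*, an aminopeptidase gene, was called as well (adjusted p = 0.0349), but a single neuron at 2884 CPM on replicate 2 held 82.6% of its 69 UMIs in cluster 4, and on replicate 1 the levels were 0 CPM in cluster 2 against 17.8 CPM in cluster 4.

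A further called rise, in a more abundant gene, was that of *Tmsb10*. It encodes thymosin beta 10, which binds actin monomers, and was at 727 and 673 CPM in cluster 2 and at 2466 and 2793 CPM in cluster 4 (1.97 ± 0.24 on the log2 scale, edgeR adjusted p = 3.07e-05). The neurons of cluster 4 ranged from 629 to 5324 CPM and those of cluster 2 from 183 to 1795 CPM, so single neurons overlapped while plates did not. *Pcp4*, a modulator of calmodulin, was at 780 and 816 against 1687 and 2103 CPM. *S100a10* and its partner *Anxa2*, which form a complex at the plasma membrane, were at 803 and 854 against 1325 and 1336 CPM and at 678 and 565 against 915 and 966 CPM. The cannabinoid receptor gene *Cnr1* was at 55.3 and 26.4 CPM in cluster 2 and at 158 CPM on both plates of cluster 4. Further called rises were *Serpini1* (neuroserpin), *Pdlim7*, *Fkbp1b*, *Avil* (advillin, an actin-binding protein of sensory neurons), *Fstl1* and the predicted genes *Gm24601* and *Gm1821*, with log2 differences between 0.55 and 1.95. The nuclear RNA *Malat1* was at 12492 and 7141 against 20907 and 11091 CPM, higher in cluster 4 on each plate (0.69 ± 0.09) although the plates overlapped.

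The falls were led by genes of low count. *Olfr373*, an olfactory receptor gene, had 15 UMIs in 8 cluster 2 neurons and 0 in cluster 4, which was at least 6.45-fold lower against 3 UMIs over the group. The predicted gene *1700108F19Rik* had 60 UMIs in 6 cluster 2 neurons and 1 in cluster 4, a ratio of 77.4 with a counting interval of 13.4 to 3107. *Atp5l*, a subunit gene of ATP synthase, was called (adjusted p = 0.0492), although a single neuron at 1303 CPM held 88.9% of its 63 UMIs in cluster 2, and on replicate 1 it was at 15.5 CPM in cluster 2 against 17.9 CPM in cluster 4. *Olfr373* is a member of a large gene family, and how its reads were told from those of relatives is not known here.

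*Maf*, which encodes a transcription factor of the bZIP family known from mechanoreceptor development, was at 56.3 and 162 CPM in cluster 2 and at 11.1 and 11.9 CPM in cluster 4. The difference was -3.33 ± 0.52 (edgeR adjusted p = 0.000528), and it was no longer called without replicate 2 (adjusted p = 0.302) or without the block (adjusted p = 0.228). *Spp1*, the gene of osteopontin and a marker of large myelinated sensory neurons, was at 678 and 1264 CPM in cluster 2 and at 235 and 242 CPM in cluster 4 (-2.12 ± 0.27, adjusted p = 4.19e-05). All 15 cluster 2 neurons had UMIs of *Spp1*, and their lowest level was 348 CPM, above the median of 174 CPM in cluster 4. *Kcnc1*, which encodes the Kv3.1 potassium channel of fast-spiking neurons, was at 431 and 320 CPM against 150 and 115 CPM (-1.37 ± 0.28, adjusted p = 0.0111). The orphan nuclear receptor gene *Esrrg* was at 86.5 and 180 CPM against 37.3 and 48.8 CPM, and *Prkcb*, a protein kinase C gene, at 184 and 134 against 60.5 and 52.3 CPM. *Fam102b* was at 570 and 394 against 163 and 213 CPM, and *Pls1*, an actin-bundling plastin, at 280 and 286 against 69.7 and 114 CPM. *Mtdh* was at 139 and 116 against 41.7 and 36.7 CPM, and *Lipa*, the lysosomal acid lipase gene, at 137 and 77.2 against 40.9 and 27.9 CPM. In each of these, both plates of cluster 2 were above both plates of cluster 4. The genes were called on these same plates, so the separation adds no support, and its share over all genes tested was not counted.

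The neurofilament triplet, which sets the calibre of large axons, was lower in cluster 4 as a group. *Nefl*, the light subunit, was at 4458 and 4826 CPM in cluster 2 and at 2494 and 2498 CPM in cluster 4 (-0.87 ± 0.13, edgeR adjusted p = 0.000336). *Nefm*, the medium subunit, was at 6943 and 7398 against 3938 and 4209 CPM (-0.79 ± 0.11, adjusted p = 7.99e-05), and *Nefh*, the heavy subunit, at 4362 and 4268 against 2784 and 2438 CPM (-0.66 ± 0.12, adjusted p = 0.00314). The estimates of all 3 were below 0 under all 13 alternatives, and the calls of *Nefl* and *Nefm* held under 12 of them and that of *Nefh* under 11. All 3 calls were lost without the block (adjusted p = 0.416, 0.467 and 0.53), and that of *Nefh* also without replicate 2 (adjusted p = 0.0903). In single neurons the triplet took a median of 1.70% and 1.47% of UMIs in cluster 2 on replicates 1 and 2, against 0.861% and 0.894% in cluster 4, with ranges of 0.951% to 2.97% and 0.554% to 1.60% over both plates. The rest of the cytoskeletal list had no call. Over its 20 tested members, the triplet included, the median was 0.15. At an unadjusted p under 0.05, 5 were higher and 5 lower, against 5.6% and 5.25% of all genes tested. Of all genes tested, 0.366% were called lower. *Tuba4a* and *Tuba8*, both tubulin genes, had estimates of -0.53 and -1.12 that did not pass (edgeR adjusted p = 0.25 and 0.391). *Prph*, *Tuba1a* and *Tubb4a* had positive estimates of 0.40, 0.40 and 0.58 that did not pass either (adjusted p = 0.339, 0.138 and 0.0942).

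Other called falls are named after their values were seen and belong to no list of the comparison. *Ldhb*, a lactate dehydrogenase gene, was at 1812 and 1886 against 1222 and 1012 CPM, and *Ckb*, brain creatine kinase, at 2006 and 1954 against 1279 and 1347 CPM. *Gyg*, the primer protein of glycogen synthesis, was at 454 and 462 against 248 and 237 CPM, and *Car2*, a carbonic anhydrase gene, at 500 and 515 against 338 and 328 CPM. The mitochondrially encoded genes gave no call in edgeR or DESeq2 among 10 tested, with 2 lower at an unadjusted p under 0.05. Their median log2 difference was -0.23, and their share of UMIs per neuron had medians of 3.12% and 2.85% in cluster 2 and of 2.45% and 2.54% in cluster 4. The remaining called falls were *Hist1h2bc*, *Ndst4*, *Clmp*, *Trnp1*, *AI593442*, *Tmem63b* and *Cabp1*, with log2 differences between -1.32 and -0.72. *Hist1h2bc* belongs to a family of near-identical histone genes, and its counts are uncertain.

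**Figure D3:**
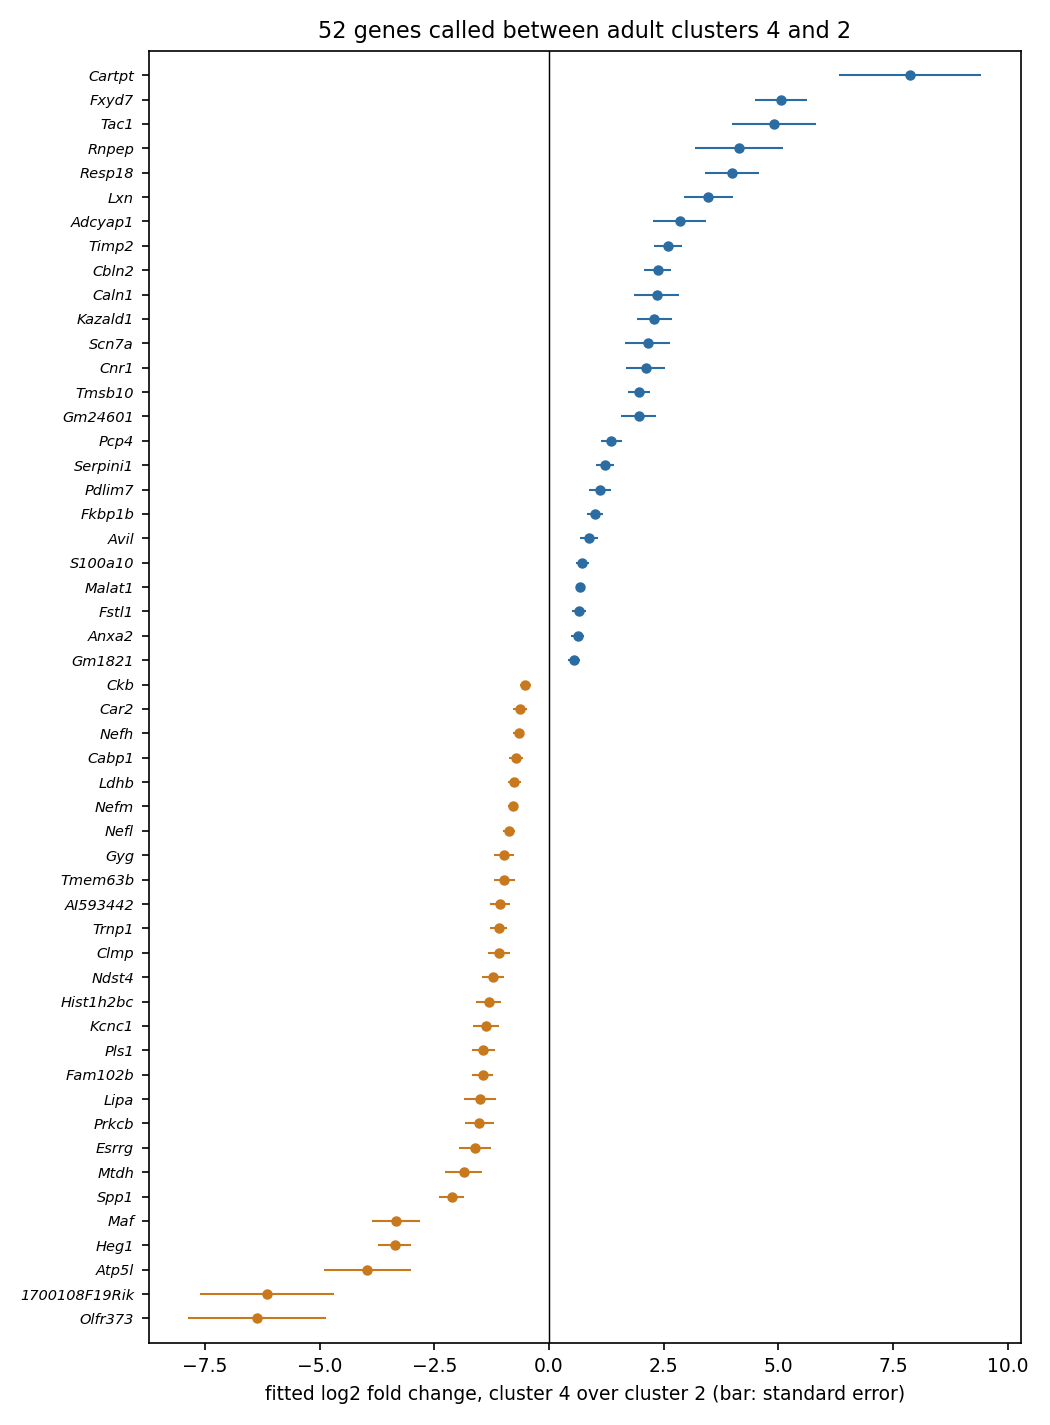
Fitted log2 fold change of 52 of the 53 genes called between cluster 4 and cluster 2 (points) with the standard error (bars), blue where higher in cluster 4 and orange where lower. Values of genes at or near 0 UMIs in a cluster, such as *Cartpt* at 7.87 and *Olfr373* at -6.36, depend on the prior count of the fit and are not measured folds.

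The neuropeptide and granin list had 3 called members of 13 tested, all higher in cluster 4, where 0.353% of all genes tested were called higher, and a median log2 difference of 0.36 against 0.0079 over all genes. *Cartpt* and *Tac1* are the markers by which the cluster is known, so the count rests in large part on genes chosen for this pattern. The remaining call was *Adcyap1*, the gene of the peptide PACAP, at 11.1 and 29.8 CPM in cluster 2 and 59.3 and 174 CPM in cluster 4 (2.85 ± 0.58, edgeR adjusted p = 0.0121). A single cluster 4 neuron at 1123 CPM held 45% of its 60 UMIs, and without replicate 2 the adjusted p was 0.463. DESeq2 gave no adjusted p for these peptide genes. Among the more abundant members of the list, 3 that did not pass are given here. *Pcsk1n* was at 707 and 835 CPM against 869 and 712 CPM, *Cpe*, the enzyme that trims peptide precursors, at 555 and 629 against 627 and 681 CPM, and *Pcsk2*, a convertase, at 434 and 546 against 788 and 686 CPM (0.65 ± 0.20, adjusted p = 0.162). A further 8 of the 27 listed genes, including *Npy*, *Sst*, *Penk* and *Vip*, had no UMI in the 43 neurons.

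The calmodulin kinase list had 1 called member, *Pcp4*, of 18 tested, where 0.353% of all genes tested were called higher. At an unadjusted p under 0.05, 6 were higher and 0 lower, against 5.6% and 5.25% of all genes tested. The list had 14 estimates above 0 and a median of 0.42 against 0.0079 over all genes. *Camk4*, the kinase that phosphorylates the CREB transcription factor, had no UMI in cluster 2 and UMIs in 7 of 19 and 5 of 9 cluster 4 neurons, at 25.5 and 47.1 CPM. It was at least 4.65-fold higher against 3 UMIs, and it did not pass (edgeR adjusted p = 0.184). *Camk2n1*, an inhibitor of calmodulin kinase II, was at 0 and 5.44 against 55.5 and 29.6 CPM (adjusted p = 0.176). Of the 15 markers drawn by the study for clusters 2 to 4, a list chosen on these neurons, 11 were tested, *Tac1* was called higher and *Heg1* lower, and the median was 0.74. *Zc3hav1* was below the filter, with UMIs in 1 cluster 2 neuron and in 13 cluster 4 neurons, and *Nrtn*, the gene of the growth factor neurturin, had 6 UMIs in 5 cluster 2 neurons of replicate 2 and 0 in cluster 4.

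Among 23 tested potassium channel genes and subunits, *Kcnc1* was the only call in edgeR, where 0.366% of all genes tested were called lower. The median of the list was -0.34 against 0.0079 over all genes, and 15 estimates were below 0. At an unadjusted p under 0.05, 4 were higher and 5 lower, against 5.6% and 5.25% of all genes tested. *Kcna1* and *Kcna2*, whose products Kv1.1 and Kv1.2 limit repetitive firing, were at 156 and 197 against 102 and 122 CPM and at 461 and 452 against 347 and 281 CPM, and did not pass (edgeR adjusted p = 0.314 and 0.439). *Kcna6*, of the same subfamily, was at 0 and 14.3 against 58.6 and 76.0 CPM, with an estimate of 3.30 that also missed the threshold (adjusted p = 0.057). *Kcnip1*, an auxiliary subunit of Kv4 channels, was at 119 and 77.5 against 22.2 and 24.9 CPM, while the related *Kcnip4* was at 0 and 27.8 against 107 and 53.8 CPM. Their estimates of -2.09 ± 0.53 and 2.26 ± 0.59 lay on opposite sides and missed the threshold (adjusted p = 0.0659 and 0.0773), though DESeq2 called *Kcnip1*. The lists of GABA-A receptor subunits, glutamate receptors and synaptic vesicle and transmitter genes gave no call in edgeR or DESeq2. Among 5 tested subunits of the GABA-A receptor the median was 0.29, or 0.41 over the 4 with more than 3 UMIs in either cluster (genes at 0 in the other set at their bound), with 1 lower at an unadjusted p under 0.05. Among 9 glutamate receptors the median was 0.11, and the AMPA receptor genes *Gria2* and *Gria3* had estimates of -1.17 and -1.37 against 2.49 for the metabotropic *Grm8*, none of which passed (adjusted p = 0.246, 0.323 and 0.215). Among 22 synaptic vesicle and transmitter genes the median was -0.04, with 2 higher and 2 lower at an unadjusted p under 0.05. *Vamp2*, which encodes a vesicle protein needed for release, was at 28.1 and 48.7 against 132 and 97.2 CPM (adjusted p = 0.141), and *Sv2a*, another vesicle protein gene, at 240 and 190 against 109 and 106 CPM (adjusted p = 0.258).

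Of 22 tested guidance and adhesion genes, edgeR called *Cbln2* alone and DESeq2 called 2, both higher. Of all genes tested, edgeR called 0.353% higher. At an unadjusted p under 0.05 in edgeR, 8 of the 22 were higher and 0 lower, against 5.6% and 5.25% of all genes tested, and the median was 0.52. *Cntnap2*, which encodes a neurexin-related adhesion protein of myelinated axons, was at 386 and 467 against 651 and 594 CPM (edgeR adjusted p = 0.176). Cadherins and protocadherins had no call in edgeR or DESeq2 among 16 tested and a median of 0.14, and at an unadjusted p under 0.05 *Cdh13* was higher and *Pcdh7* lower (237 and 228 against 159 and 147 CPM). The list of copines and calcium-binding proteins, which does not hold every such gene, had 1 call, *S100a10*, among 15, where 0.353% of all genes tested were called higher. Its median was -0.19, or -0.07 over the 13 with more than 3 UMIs in either cluster, genes at 0 in the other being set at their bound. At an unadjusted p under 0.05, 2 were higher and 4 lower. Of 20 transcription factors tested, *Maf* was the only call in edgeR and in DESeq2, where edgeR called 0.366% of all genes tested lower. The median was -0.15, with 1 higher and 4 lower at an unadjusted p under 0.05. *Runx1* was at 123 and 63.5 against 22.6 and 0 CPM and did not pass (adjusted p = 0.16).

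Of the 7 canonical proprioceptor genes, *Spp1* alone was called, and the median log2 difference was -0.38 against 0.0079 over all genes. All 7 estimates were below 0, and 4 of the 7 were lower and 0 higher at an unadjusted p under 0.05, against 5.25% and 5.6% of all genes tested. *Pvalb* was at 1895 and 2010 against 1635 and 1343 CPM (edgeR adjusted p = 0.215), and *Ntrk3*, the receptor of neurotrophin 3, at 339 and 447 against 226 and 300 CPM (adjusted p = 0.217). *Etv1* was at 587 and 424 against 384 and 406 CPM (adjusted p = 0.448), and *Runx3* at 63.7 and 50.3 against 55.8 and 72.6 CPM, where the plates overlapped and the estimate was -0.05 ± 0.42. The neurotrophin and GDNF list had no call in edgeR or DESeq2 among 5 tested, with a median of -0.58 and *Ntrk3* alone under an unadjusted p of 0.05. Markers of group Ia and group Ib afferents gave no call in either tool among 4 and 7 tested and none at an unadjusted p under 0.05. The group Ia markers summed to 48.0 and 67.4 CPM in cluster 2 and to 21.1 and 29.2 CPM in cluster 4. All 4 group Ia estimates were below 0, with a median of -1.05, or -0.67 over the 2 with more than 3 UMIs in either cluster. The group Ib markers summed to 22.4 and 30.1 against 33.5 and 20.6 CPM. Glial markers gave no call in either tool among 7 tested, and *Pmp22*, the member under an unadjusted p of 0.05, was at 5.83 and 7.73 against 11.8 and 74.2 CPM (adjusted p = 0.225). Of 11 markers of cutaneous low-threshold mechanoreceptors, 5 were tested and *Maf* was called lower, while 2 were higher and 1 lower at an unadjusted p under 0.05. Among 12 immediate early and dissociation genes tested none was called by either tool, with 2 higher and 1 lower at an unadjusted p under 0.05 and a median of 0.56, and the list of vessel, connective tissue and blood genes summed to between 7.25 and 16.1 CPM. What part the depth or these accompanying values had in the calls was not tested.

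Beside the other adult neurons, each cluster was extreme for some of its genes and not for others. These levels are a description, since the clusters were found from them, and the means are over different plates, as clusters 2 and 4 lie on replicates 1 and 2 only. *Heg1* was highest in cluster 2. Clusters 3 (114 ± 30.3 CPM, n = 4 plates) and 1 (96.4 ± 39.5 CPM, n = 5) overlapped, then came cluster 4 (28.1 ± 9.04 CPM, n = 2) and cluster 5 (3.87 ± 4.51 CPM, n = 5). In cluster 1 *Heg1* ran from 135 and 128 CPM on replicates 1 and 2 to 41.5 CPM on replicate 5, and on replicate 2, which holds all 5 clusters, cluster 1 was at 128 and cluster 3 at 123 CPM. *Tmsb10* stood at 2630 ± 231 CPM in cluster 4 against 967 ± 299 in cluster 5, 733 ± 204 in cluster 3, 700 ± 38.5 in cluster 2 and 103 ± 18.1 in cluster 1, and the plates of clusters 2, 3 and 5 overlapped. *Fxyd7* was shared between cluster 4 (266 ± 80.7 CPM) and cluster 5 (263 ± 100 CPM), and *Timp2* was higher in cluster 5 (587 ± 100 CPM) than in cluster 4 (268 ± 0.607 CPM). *Spp1* and *Nefl* were lowest in cluster 4 of all 5 clusters, at 239 ± 4.82 and 2496 ± 2.49 CPM.

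The study set apart 42 adult neurons in minor groups without a cluster number, and these were present on all 5 plates. *Tmsb10* was at 2870 ± 730 CPM (n = 5), with a lowest plate of 2271 and a highest of 3680 CPM, a range that held both plates of cluster 4. *Tac1* was at 217 ± 157 CPM, from 21.9 to 446 CPM, so that its lowest plate was near the higher plate of cluster 2. *Heg1* was at 12.2 ± 9.63 CPM, with every plate below those of cluster 2. *Lxn*, at 909 ± 217 CPM with a lowest plate of 690.3 CPM, was above both plates of cluster 4. *Fxyd7*, at 1033 ± 347 CPM, was above every plate of clusters 4 and 5. *Cartpt*, at 18.4 ± 23.9 CPM with a highest plate of 51.7 CPM, was below both plates of cluster 4.

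**Figure D4:**
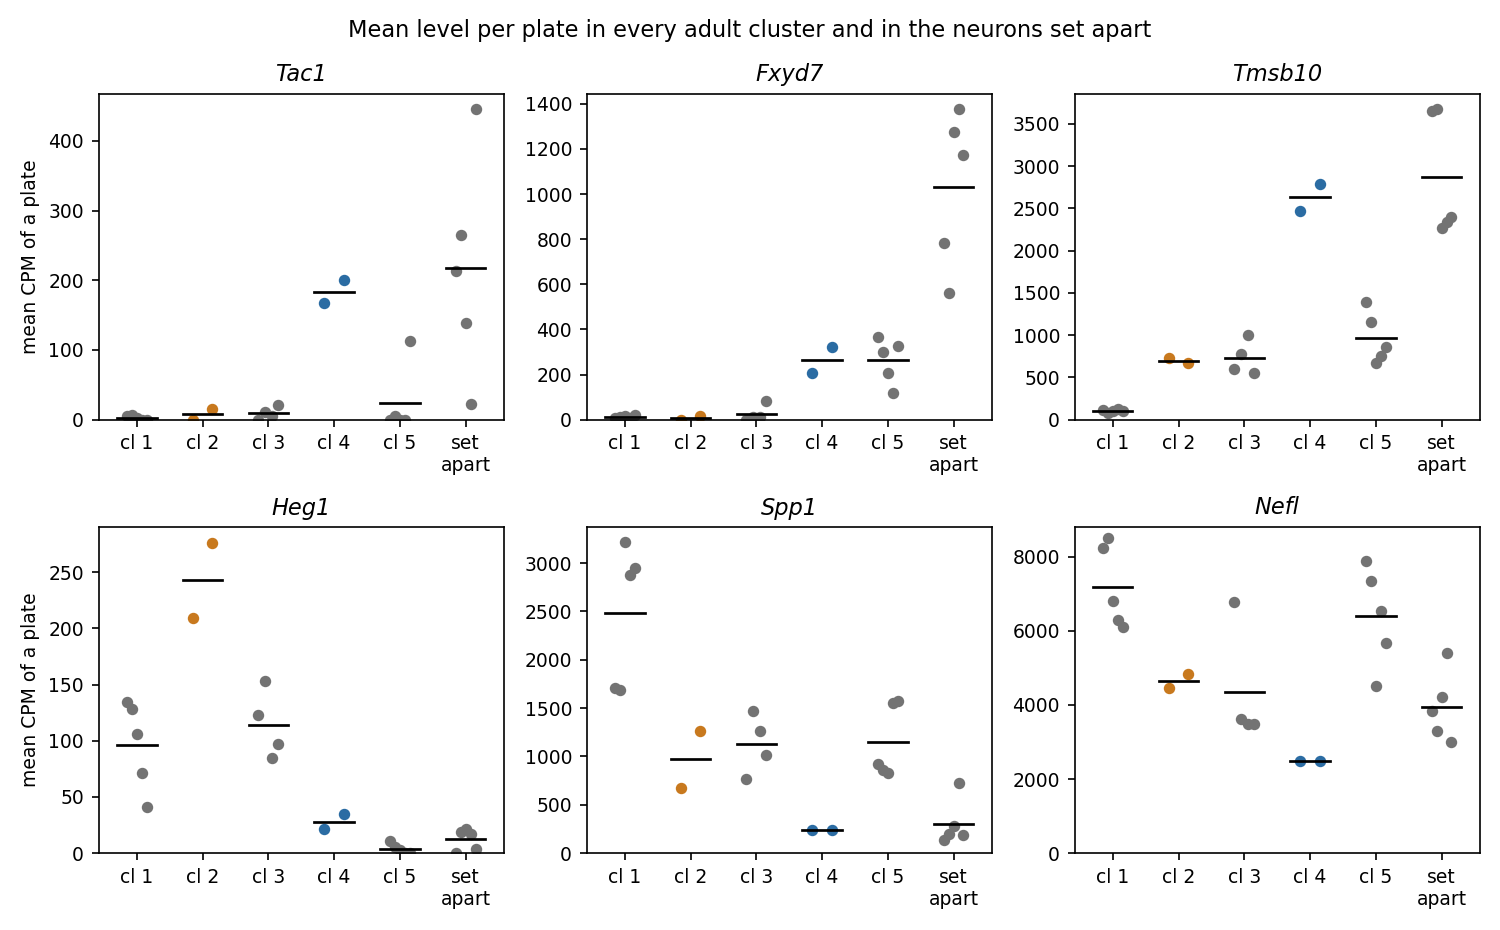
Mean CPM per plate (points) and mean over plates (lines) of 6 genes in adult clusters 1 to 5 and in the neurons set apart, with cluster 2 in orange and cluster 4 in blue; plates with at least 2 neurons of a group are shown. The plates of the neurons set apart span those of cluster 4 in *Tmsb10* (mean of 2870 CPM) and lie above them in *Fxyd7* (mean of 1033 CPM).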

How the data were processed

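Single tdTomato-positive neurons were profiled by Plate-seq. The authors aligned the reads to mm10 (GRCm38) with STAR, assigned them to wells through the Plate-seq barcodes and counted each UMI once, and the deposited values are whole-number UMI counts per gene and well without normalization. Cluster numbers came from the deposited annotation. Plates were mapped to groups by their labels, and 1 plate whose name in the annotation has an extra 0 was read as adult replicate 5. The processed table of all plates holds the same values and was not used.

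CPM was a gene's share of all UMIs of a neuron, averaged over the neurons of a plate. UMIs were summed per cluster and plate (at least 2 neurons) and tested by the quasi-likelihood F-test of edgeR 4.0.16 (R 4.3.3) with the plate as a block, after filterByExpr and TMM scaling, and calls had a Benjamini-Hochberg adjusted p under 0.05. Same-numbered sums came from the same plate, which pairs them. The scripts were tested on simulated counts. DESeq2 1.42.0, limma 3.58.1 (needed by edgeR), Python 3.11.15, numpy 2.4.6, pandas 2.3.3, scipy 1.17.1 and matplotlib 3.10.9 were also used. Thinning drew 7000 UMIs per neuron. Limits for 0 UMIs used 3 counts, and intervals are exact (Clopper-Pearson) and cover counting error only. Alternatives were another tool, other scaling, no filter on low counts, no block, fewer sums, thinned neurons, sums of 1 neuron and leaving out each plate. Doublets were not called, since single neurons were sorted.

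The members, gene lists and tests were chosen with earlier results of these data known. Named are the markers of the clusters, the 12 largest rises and 12 largest falls among called genes without predicted genes, called list members, and the most abundant members of a list. Other genes were named after their values were seen. How reads of near-identical or antisense genes were counted is not given in the sources used here. Coordinates are from RefSeq on GRCm38. Results for some genes are not reported here, 1 called gene among them.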

Additional observations from a re-analysis of the deposited data

Results flagged for a closer look

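Levels of 26 genes named in the report were compared over the 5 plates in the adult neurons set apart, and 2 genes had a plate far from the others. *Kazald1* was at 168 CPM on replicate 1, against 89.5 CPM on the next plate. *Spp1* was at 723 CPM on replicate 4, against 286 CPM on the next plate. Chance gives about 1 such gap in 20 groups. Clusters 2 and 4 have 2 plates each and could not be examined in this way.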

How the results depend on the processing

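The count of 53 called genes (26 higher and 27 lower in cluster 4) was within 1.5 times under DESeq2, DESeq2's size factors in edgeR, sums of at least 1 neuron, and without adult replicate 3, 4 or 5. It was 143 (63 higher, 80 lower) with no filter on low counts, 135 (68 and 67) with the 4 sums of clusters 2 and 4 alone, 104 (51 and 53) with the sums of adult replicates 1 and 2 alone, and 28 (16 and 12) with neurons thinned to 7000 UMIs. Without the replicate block that pairs the sums of a plate it was 10 (7 and 3). Leaving out 1 adult replicate gave 19 to 57 genes, with 10 to 28 higher and 9 to 29 lower, the lowest without replicate 2, and 26 (13 and 13) without replicate 1, where 1 sum a side is left and is assumed to vary like the other clusters. No called gene changed direction. For the markers, thinning moved the *Cartpt* and *Tac1* levels of cluster 4 to 73.1 and 272 CPM, and the shares of neurons with a UMI to 21.6% (*Cartpt*), 62.6% (*Tac1*), 18.7% (*Cdh13*) and 13.7% (*Heg1*) in cluster 4 and 86.4% (*Heg1*) in cluster 2. The causes were not tested. With 4 cluster 2 neurons on replicate 1 and 9 cluster 4 neurons on replicate 2, genes of few UMIs rest on few cells.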
